A study of Mus musculus with 2 samples.

Results

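The 7 mouse genes described here encode the proteins with which cells present peptides on major histocompatibility complex (MHC) class II: H2-Aa, H2-Ab1, H2-Eb1, Cd74, H2-DMa, H2-DMb1 and H2-DMb2. They form a list of names to which no threshold on a value was applied, with earlier results of these data known, and every row that the table of all liver cells holds for them was taken. That table lists 1755 genes in 3742 rows, of which 6 of the 7 genes account for 11. H2-DMb1 is not listed in any of the 12 clusters. The cells came from the livers of male wild type BALB/c mice, 8 to 10 weeks old and fasted, that received PBS or rIL-33 (0.5 µg) intraperitoneally on each of 5 days, and hepatocytes were isolated by perfusion and digestion. Each treatment gave 1 droplet-based library, 2 in all, made without sorting from cells labelled primary hepatocyte, so the B cells and Kupffer cells are those left in that preparation, and the number of mice behind a library is not given in the sources used here. The table pools the cells of both libraries and compares each cluster with all other cells, so the response of these genes to rIL-33 was not analysed here, there are no replicates, and no test was run on any value below.

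MHC class II molecules are pairs of an α and a β chain that carry peptides from endocytosed proteins to the cell surface, where CD4+ T cells read them. Cd74, the invariant chain, fills the peptide groove of the newly made pair and guides it to the endosome. Proteases there trim Cd74 until a short peptide is left in the groove, and H2-DM, itself a pair of an α chain (H2-DMa) and a β chain (H2-DMb1 or H2-DMb2), exchanges that peptide for others. B cells, dendritic cells and macrophages are the cells best known for this pathway, and Kupffer cells are the resident macrophages of the liver sinusoids. Hepatocytes normally lack class II on their surface and present through class I instead.

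Except for Cd74, which lies on another chromosome, the genes lie in the same region, the MHC. In GENCODE M21 on GRCm38 these 6 fall within 197.1 kb of chromosome 17, from 34119541 to 34316674. H2-DMa (34119541 to 34139101), H2-DMb2 (34143307 to 34151555) and H2-DMb1 (34153072 to 34160230) form one end. H2-Ab1 (34257689 to 34269419), H2-Aa (34282744 to 34287823, on the minus strand) and H2-Eb1 (34305867 to 34316674) form the other. The longest principal transcript of H2-Aa has 5 exons, that of Cd74 has 9, and those of the remaining genes have 6 each. H2-DMb1 and H2-DMb2 are close copies. Their principal transcripts were identical at 94.58% of 1255 aligned bases. Their last 300 bases, where a 3ʹ library reads, were less alike, with 79.12% of 273 aligned bases identical. Whether any reads were divided between both genes or not assigned to either was not tested. The α and β chain genes are also among the most variable genes between mouse strains, and the mm10 assembly to which the authors aligned the reads is that of C57BL/6J, not BALB/c. How this affected the counts was not tested.

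Class II promoters share an upstream module, the X and Y boxes, through which the coactivator CIITA acts. The promoters of H2-Aa and H2-Eb1 are shown as those of an α and a β chain gene. H2-Ab1 and Cd74 had no entry in the promoter table used here. Capitals mark the letters searched, TGATTGG as the core of the Y box and GCAAC as the start of the X box, and each sequence runs 5′ to 3′ on the strand of the gene over the 110 bases before the RefSeq start in GRCm38.p6 (chr17:34287824-34287933, minus strand, for H2-Aa and chr17:34305757-34305866, plus strand, for H2-Eb1).
H2-Aa: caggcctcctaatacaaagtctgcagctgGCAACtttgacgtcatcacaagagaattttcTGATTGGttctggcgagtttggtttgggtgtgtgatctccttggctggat
H2-Eb1: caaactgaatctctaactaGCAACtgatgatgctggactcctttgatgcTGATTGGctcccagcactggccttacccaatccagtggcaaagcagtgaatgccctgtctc
Counted from the start site, GCAAC begins at -81 and TGATTGG at -50 in H2-Aa, a spacing of 31. The positions in H2-Eb1 are -91 and -61, a spacing of 30. On either strand, 7.82% of 32851 promoter windows of 300 bases hold TGATTGG and 35.2% hold GCAAC. On the strand of the gene alone the shares are 4.01% and 19.3%, so neither is unusual by itself. Both motifs with this spacing, which was set after the sequences had been read, occur on either strand in 11 windows (0.0335%). Of these windows, 4 belong to class II genes: H2-Aa, H2-Eb1, H2-Eb2 and H2-Oa. The spacing is that of H2-Aa and H2-Eb1, so these genes were bound to be among them. H2-DMb2 and H2-DMb1 hold TGATTGG at -92 and -63 but no GCAAC, and neither window of H2-DMa holds TGATTGG. A match of letters is a description and not a binding site.

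A gene is listed for a cluster when its mean is higher there than in all other cells by 0.25 or more on the log2 scale. At least 25% of the cells, inside or outside the cluster, must also have a value above 0. The listed rows also end at an unadjusted p-value of 0.01, after rounding, in the authors' comparison. The correction in the table counts 2000 genes, called genes tested here. By this measure the class II genes were listed for 2 of the 12 clusters, those the authors named B cell and Kupffer cell. The B cell cluster lists 6 of the 7 genes, against 25.6% of all genes tested. The Kupffer cell cluster lists 5 of the 7, against 24.9%. No class II gene is listed for the other 10 clusters, which list between 0.5% (Hepatocyte2) and 29.9% (T cell) of genes tested. The others in between are HSC/fibroblast (26.8%), Hepatocyte4 (22.1%), Hepatocyte5 (21.7%), red blood cell (16%), neutrophil (11.3%), endothelial cell (4.9%), Hepatocyte3 (1.85%) and Hepatocyte1 (1.55%). Stricter rules kept the same 6 and 5 genes. A log2 fold change of 0.5 or more was met by 23.3% of genes tested in B cells and 23.4% in Kupffer cells, and 1 or more by 14.4% and 19.9%. An adjusted p-value under 0.05 was met by 24.4% and 22.7%, and a higher share inside the cluster by 24.2% and 21.1%. H2-DMb1 may lie outside the genes tested, so its absence from the table says nothing of its level.

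The labels of both clusters were checked against defining genes. The Kupffer cell cluster lists 9 of 10 Kupffer cell genes, all but Marco, with 37.1 to 95.4% of its cells above 0 (median 81.1%). The B cell cluster lists 5 of 8 B cell genes: Igkc, Ighm, Cd79a, Cd79b and Ms4a1, with 33.2 to 80.6% of its cells above 0 (median 60.3%). Ighd and Cd22 are among those not listed, and may lie outside the genes tested. Outside the cluster Igkc and Ighm were above 0 in 68.1% and 61.6% of cells, Cd79a in 7.8%, Cd79b in 2.5% and Ms4a1 in 0.1%. The 15 highest genes of the B cell cluster by fold change also held Jchain (6.29) and Mzb1 (4.98), genes of antibody-secreting cells, and Lyz2 (3.48), a lysozyme of myeloid cells. Balancing the shares of cells over 1115 genes gave the relative size of each cluster. B cells made up 2.19% and Kupffer cells 2.68% of the cells, and the hepatocyte clusters together 89.98%. The number of molecules counted per cell is unknown, so shares are not set at equal depth.

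In the B cell cluster the invariant chain gene led. For Cd74 the deposited log2 fold change over all other cells was 5.35, with a value above 0 in 89.9% of the cells of the cluster and 28.2% of all other cells. It ranked 6 of the 511 genes listed for that cluster, behind 5 others headed by the immunoglobulin chain genes Igkc (7.79) and Ighm (6.86).

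The genes of the classical α and β chains followed closely. H2-Aa, the α chain of the I-A molecule, had a log2 fold change of 4.66 in the B cell cluster and a value above 0 in 68.0% of its cells against 16.3% of other cells. Its partner H2-Ab1, the β chain of I-A, had 4.08, with 69.6% against 7.7%. H2-Eb1, the β chain of the I-E molecule, had 3.97, with 60.3% against 8.7%. By log2 fold change these chains ranked 8, 11 and 12 of 511 in the cluster. By the difference in share H2-Ab1 (61.9 percentage points) ranked 4 and Cd74 (61.7) ranked 5 of the same 511 genes.

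The H2-DM genes stood lower. H2-DMa had a log2 fold change of 2.09 in the B cell cluster, with 40.1% of its cells above 0 against 15% of other cells, and ranked 57 of 511. H2-DMb2 had 1.37 and ranked 167. Its share was 25.9% inside the B cell cluster, just above the 25% needed for listing, and 0.5% outside it. Over the 6 genes the median log2 fold change in the B cell cluster was 4.03, against 1.08 over all 511 genes listed, and the median share inside the cluster was 64.2%, against 44.5%.

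The Kupffer cell cluster had the same genes with smaller differences, except H2-DMb2. Cd74 came first again, with a log2 fold change of 2.75 and a value above 0 in 66.9% of Kupffer cells against 28.5% of other cells. H2-Aa followed with 1.74 (38.7% against 16.9%), then H2-Ab1 with 1.53 (32.5% against 8.4%), H2-DMa with 1.47 (34.4% against 15%) and H2-Eb1 with 1.10 (29.1% against 9.3%). Their ranks among the 499 genes listed for Kupffer cells ran from 60 for Cd74 to 377 for H2-Eb1. Over these 5 genes the median in Kupffer cells was 1.53 on the log2 scale, against 1.61 over all 499 genes, and the median share was 34.4%, against 39.1%. Among the Kupffer cell markers, C1qa, a complement component, had 5.90 and Clec4f, a lectin of Kupffer cells, had 5.25.

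**Figure D1:**
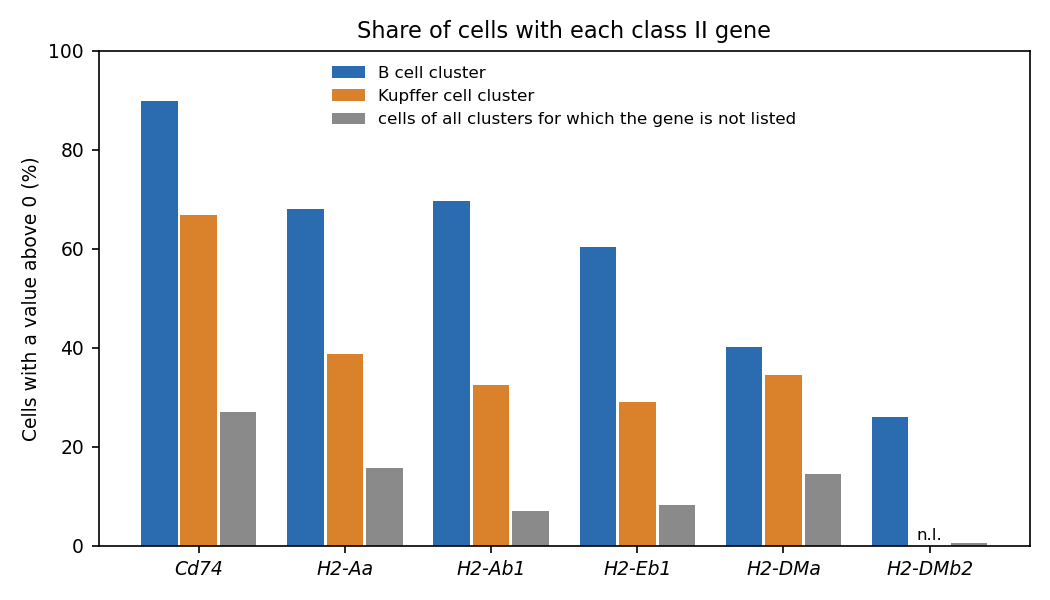
Share of cells with a value above 0 for each listed class II gene, in percent, in the B cell cluster, in the Kupffer cell cluster and in the cells of all clusters for which the gene is not listed (n.l., not listed for Kupffer cells); bars are single pooled values without replicates. Cd74 reached 89.9% of B cells, 66.9% of Kupffer cells and 27.1% of the remaining cells, and each gene listed for both clusters had its highest share in B cells.

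To compare both clusters, the fold change and the share were set side by side for the 231 genes listed for B cells and for Kupffer cells (11.6% of genes tested). Most of these genes had the larger fold change in Kupffer cells. Only 83 of the 231 (35.9%) had a larger log2 fold change in B cells, and the median difference, B cells minus Kupffer cells, was -0.37. All 5 class II genes listed for both clusters had the larger fold change in B cells, and 4 of them were among the 5 largest differences of all. H2-Aa ranked 1 of 231 with a difference of 2.92, H2-Eb1 ranked 2 with 2.87, Cd74 ranked 4 with 2.60 and H2-Ab1 ranked 5 with 2.56. H2-DMa ranked 38, with a difference of 0.61.

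The shares of cells gave the same order between the clusters. H2-Ab1 had a value above 0 in 37.1 percentage points more of the B cells than of the Kupffer cells, H2-Eb1 in 31.2, H2-Aa in 29.3, Cd74 in 23 and H2-DMa in 5.7. Over all 231 genes the median difference was 7.3 percentage points and 61.5% had the higher share in B cells. H2-DMa, which edits the peptide rather than presenting it, had the smallest difference between the clusters among these 5 by both measures. The spread between mice behind these differences is unknown.

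**Figure D2:**
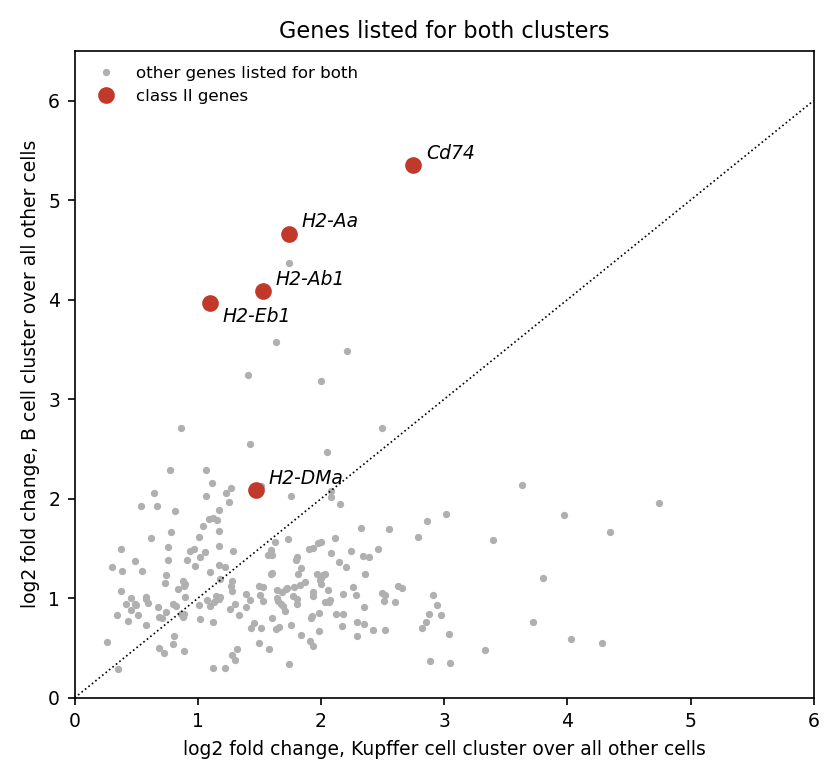
Deposited log2 fold change over all other cells in the B cell cluster (vertical axis) against that in the Kupffer cell cluster (horizontal axis) for the genes listed for both clusters, 1 point per gene; the dotted line marks equal values. Cd74, H2-Aa, H2-Ab1 and H2-Eb1 lie far above the line, and H2-DMa lies near it.

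Fold changes of clusters of different size do not share a reference, because each cluster is left out of its own comparison. With the cluster sizes they can be put on one scale, the mean of a gene in a cluster over its mean in all cells, with 1 added to both means as Seurat does by default. On this scale Cd74 was 21.8 in B cells, 5.83 in Kupffer cells and 0.386 in all remaining cells. H2-Aa was 16.5 in B cells and 3.15 in Kupffer cells, H2-Ab1 12.6 and 2.74, and H2-Eb1 11.9 and 2.08. B cells therefore exceeded Kupffer cells 5.69-fold for H2-Eb1, 5.25-fold for H2-Aa, 4.58-fold for H2-Ab1, 3.74-fold for Cd74 and 1.5-fold for H2-DMa. The order of the genes differed from that by share, in which H2-Ab1 came first. The addition of 1 is assumed. If it was made, these ratios understate the ratio of the means themselves.

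**Figure D3:**
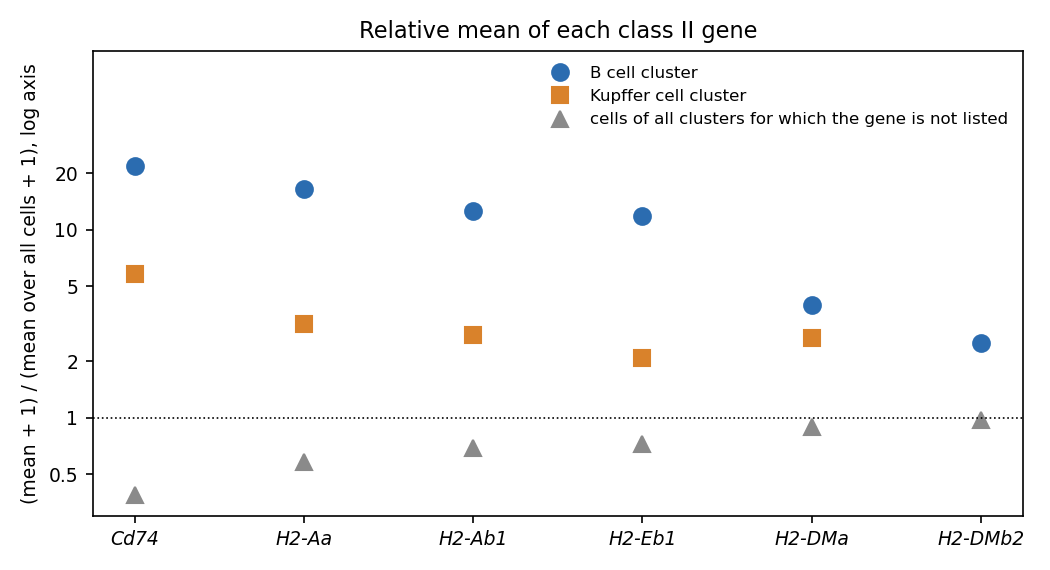
Mean of each listed class II gene, with 1 added, relative to its mean over all cells, with 1 added, on a log axis; circles are the B cell cluster, squares the Kupffer cell cluster and triangles the cells of all clusters for which the gene is not listed, and the dotted line marks the mean over all cells. B cells lie between 2.49 (H2-DMb2) and 21.8 (Cd74), above Kupffer cells for each gene listed for both.

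Cells outside these clusters were not free of class II values. Solving the balance of shares for the cells of the other 10 clusters, 94.6% of which are hepatocytes by the cluster sizes, left Cd74 above 0 in 27.1% of them, H2-Aa in 15.7%, H2-DMa in 14.4%, H2-Eb1 in 8.13% and H2-Ab1 in 7.0%. H2-DMb2 was above 0 in 0.5% of the cells outside the B cell cluster. Because so many cells are hepatocytes, these small shares hold most of the cells with a value: 87.3% of all cells with Cd74 above 0 lie outside both clusters, and 73.6% of those with H2-Ab1. For H2-DMb2, 53.7% of the cells with a value are B cells. Set against the share in the remaining cells, the share of Cd74 was 62.8 percentage points higher in B cells and 39.8 in Kupffer cells, and that of H2-Ab1 was 62.6 and 25.5 higher. The smallest such difference of a gene listed for both clusters was that of H2-DMa in Kupffer cells, 19.96 percentage points.

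What these shares in the remaining cells consist of was not tested. The study's methods describe a merged matrix and name no step of batch integration, in which a cell without a molecule of a gene can still have a value above 0, and which values entered the table of all cells is not given in the sources used here. A second table of the authors compares the 5 hepatocyte clusters with each other. For the same cluster, Hepatocyte4, 370 of the 385 genes listed in both tables had a higher share in the table of all cells, with a median difference of 13.9 percentage points, and for Hepatocyte5 it was 304 of 409. The class I heavy chain gene H2-K1, for example, was above 0 in 93.7% of Hepatocyte4 cells in the table of all cells and in 82.9% in the hepatocyte table. None of the 7 class II genes is listed in the hepatocyte table, so their shares were not compared in this way.

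The shares also set arithmetic limits on how many cells had a value above 0 for both genes of a pair, such as an α chain and its β chain. In the B cell cluster, at least 37.6% and at most 68.0% of the cells had values above 0 for both H2-Aa and H2-Ab1, and at least 59.5% for both H2-Ab1 and Cd74. Among Kupffer cells, the shares of H2-Aa (38.7%) and H2-Ab1 (32.5%) allow from no cell to 32.5% of the cells with both. For H2-Aa and Cd74 together the limits in Kupffer cells were 5.6 and 38.7%. These are limits on values in the table and not on transcripts, since a value of 0 does not show that a transcript is absent, and the values in the remaining cells were not subtracted.

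Of 28 other genes of the class II pathway, 9 are listed for at least 1 cluster, and more of them are listed for Kupffer cells than for B cells. The Kupffer cell cluster lists 8 of the 28 and the B cell cluster 3, again against 24.9% and 25.6% of all genes tested. Some of the 28 may lie outside the genes tested, so these counts and percentages have different bases. Of the endosomal proteases, Ctsb, Lgmn, Ctsd and Ctss had their largest log2 fold change in Kupffer cells. Ctsb, cathepsin B, had a log2 fold change of 5.28 there, Lgmn, an asparagine-specific endopeptidase, had 5.19 and Ctsd, cathepsin D, had 3.22, and none of these 3 is listed for B cells. Ctss, cathepsin S, which cleaves the invariant chain in antigen-presenting cells, had 4.74 in Kupffer cells (87.1% of cells against 14.9%) and 1.96 in B cells (73.3% against 15.6%). Ctsl, cathepsin L, is listed for Hepatocyte4 (0.91) and Hepatocyte5 (1.13) instead. Ctsh (Hepatocyte4 and Hepatocyte5) and Ctsz (Hepatocyte5) are listed only where the hepatocyte clusters are compared with each other.

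One pathway gene followed the class II chains. Ifi30, a thiol reductase that opens disulphide bonds of endocytosed proteins, had a log2 fold change of 3.18 in B cells (68.8% against 38.3% of other cells) and 2.0 in Kupffer cells (51.3% against 38.6%). The receptor chain for interferon γ, Ifngr1, had 2.28 in Kupffer cells, 1.76 in T cells (48.6% against 22.3%) and 1.03 in B cells. Cd83, a surface glycoprotein of activated antigen-presenting cells, is listed for Kupffer cells alone, with 1.72 and 36.1% of cells against 1.1%. Ciita, the class II coactivator, is not listed for any cluster, nor are the RFX and NF-Y subunits of the X and Y boxes. The same holds for the H2-DM inhibitors H2-Oa and H2-Ob and the costimulatory genes Cd80, Cd86 and Cd40. Like H2-DMb1, all these genes may lie outside the genes tested, so their absence says nothing of their level.

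Class I genes were listed for T cells and hepatocytes as well. Of 24 genes of class I presentation, 9 are listed, in 7 of the 12 clusters. Because this list is longer, its number of clusters is not comparable with the 2 clusters of the class II genes. B cells list 8 of the 24 (25.6% of genes tested), T cells 7 (29.9%), Hepatocyte5 6 (21.7%) and Kupffer cells 5 (24.9%). Hepatocyte4 lists 4 (22.1%), HSC/fibroblast 4 (26.8%) and neutrophils 1 (11.3%). Some of the 24 may lie outside the genes tested, so these counts and the percentages in brackets have different bases. H2-K1 and H2-D1, the classical heavy chains, are each listed for 6 clusters. For both the largest log2 fold change was in T cells, 2.28 for H2-K1 and 2.85 for H2-D1, where no class II gene is listed. In B cells H2-K1 had 1.05 and H2-D1 1.67, far below the class II α and β chain genes there (3.97 to 4.66). In Kupffer cells H2-K1 had 1.39 and H2-D1 1.17, within the range of the same chain genes there (1.10 to 1.74). Psmb8 and Psmb9, subunits of the immunoproteasome that makes peptides for class I, are listed for T cells (2.98 and 2.07) and B cells (1.85 and 1.28). In Hepatocyte4 and Hepatocyte5, H2-K1 had 1.02 and 0.89.

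**Figure D4:**
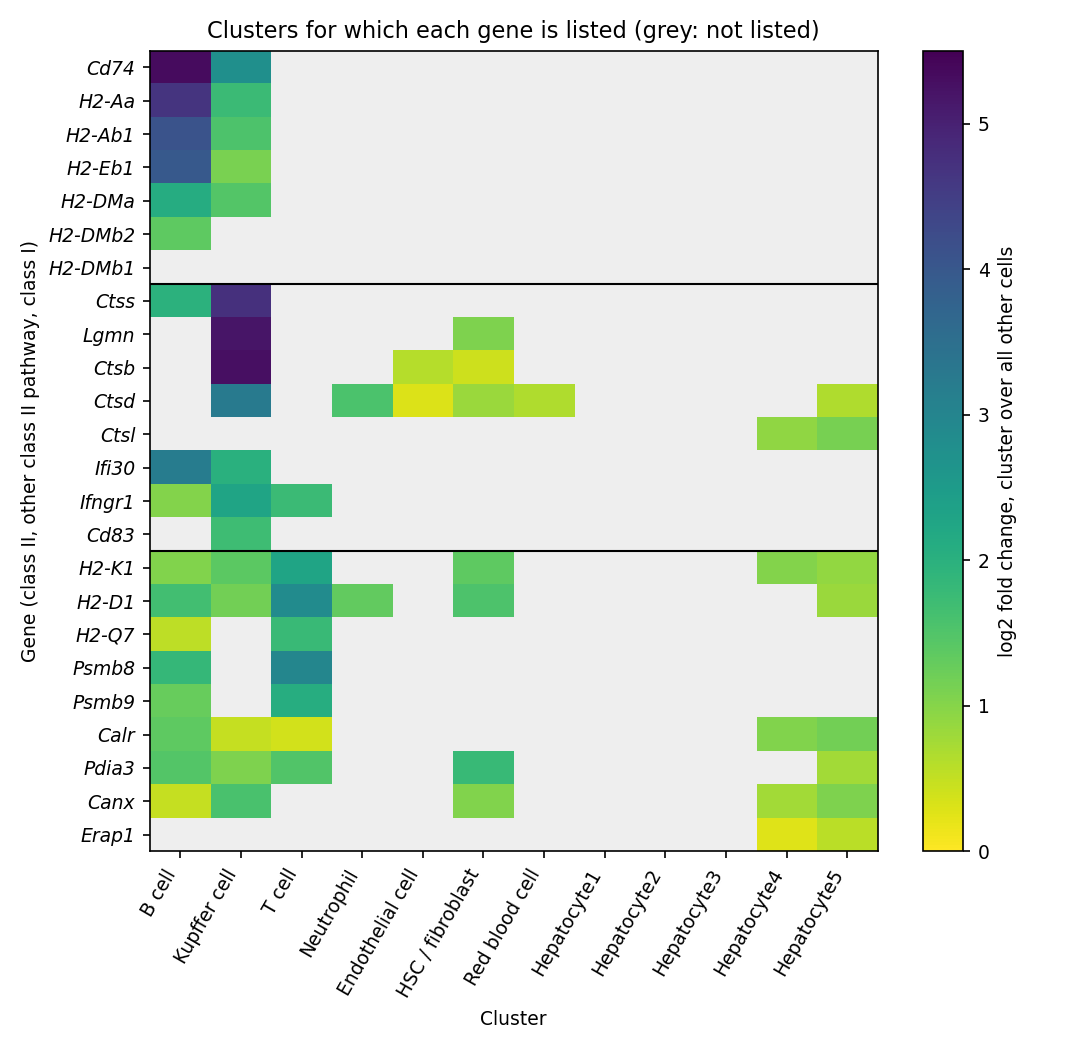
Deposited log2 fold change over all other cells (colour) for the class II genes (top), 8 of the other class II pathway genes that are listed (middle) and the class I genes that are listed (bottom) in each of the 12 clusters; grey means that a gene is not listed for a cluster, which is not the same as absent. The class II genes are listed for the B cell and Kupffer cell clusters, whereas H2-K1 and H2-D1 are each listed for 6 clusters.

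No cluster is named for dendritic cells or monocytes. Of 12 dendritic cell genes, including Flt3, Itgax, Xcr1, Clec9a, Cd209a and Siglech, 1 is listed for any cluster. It is Wdfy4, which acts in cross-presentation, at 1.04 on the log2 scale in the B cell cluster and in 27.5% of cells against 0.7%. Over all genes, 1755 are listed for some cluster and 2000 were tested. Dendritic cell genes without a row may therefore lie outside the genes tested, and the count does not show whether dendritic cells are present. Of 7 monocyte genes, the T cell cluster lists 3 (29.9% of genes tested), among them Ccr2 in 62.8% of cells against 0.9%, and the neutrophil cluster lists 2 (11.3%). The HSC/fibroblast cluster lists 1 (26.8%), Plac8, in 84.2% against 9.5%. The B cell cluster also lists 2 (25.6%): Plac8 with 3.63 (44.1% against 8.8%) and Ly6c2 with 2.18 (53.0% against 12.1%). The Kupffer cell cluster lists 1 (24.9%), Cx3cr1, with 3.24 (59.6% against 6.8%). Of 8 endothelial genes, the Kupffer cell cluster lists 3 (24.9% of genes tested), with 26.2 to 30.1% of its cells above 0, among them Fcgr2b in 26.2% against 22%. The B cell cluster lists 1 (25.6%), Fcgr2b, in 33.6% against 21.9%. The T cell cluster also lists 1 (29.9%), Pecam1, in 35.8% against 5.3%. The part of cells other than B cells and Kupffer cells in the class II values of the B cell and Kupffer cell clusters was not tested. Liver sinusoidal endothelial cells can also present on class II. The cluster named endothelial cell, which lists 4.9% of genes tested, lists 3 of the 8 endothelial genes, with 30.6 to 33.3% of its cells above 0. It also lists Dcn among 8 stellate cell and fibroblast genes. The cluster named HSC/fibroblast (26.8% of genes tested) lists 6 of the endothelial and 7 of the stellate cell and fibroblast genes. Endothelial genes are thus not confined to the cluster of that name, and no class II gene is listed for either.

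The genes whose fold changes over the 12 clusters were most like the median class II profile were sought among the 1110 other genes listed for at least 2 clusters, by the cosine between profiles with 0 where a gene is not listed. They were Socs2 (0.998), Edem2 (0.992), Serp1 (0.981), Ifi30 (0.979) and Selenos (0.956). The cosine compares the balance between clusters and not the size, and these genes had smaller fold changes, for example 0.94 in B cells and 0.42 in Kupffer cells for Socs2, whose share was lower inside both clusters than outside (42.5% against 44.9% and 24.5% against 45.5%). Ifi30 and Selenos were also among the 5 genes most alike when the difference in share was used in place of the fold change, with Ifi30 first.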

How the data were processed

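Single-cell RNA was measured in 1 library for PBS and 1 for rIL-33. Cell Ranger and mm10 are named in the submitters' processing notes. In Seurat, cells with over 3000 or under 200 genes or over 50% mitochondrial genes were left out (the upper limit as the step against potential doublets, with no doublet caller named), values were normalized to 10000 per cell before a natural log, and markers of the merged clusters were listed with FindAllMarkers. In the deposited tables, log2 fold changes compare a cluster with its reference cells. The deposited fractions are shares of cells with a value above 0, to 0.1 percentage points, and are printed as percentages. From the deposited p-values came the 2000 genes that the correction counts, the limit of 0.01 at which the rows end and an alternative limit of 0.05. No p-value of a gene is printed. Both tables consist of the authors' own comparisons; they were used because they hold the shares.

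Cluster sizes came from least squares on genes listed for at least 2 clusters. The relative mean assumes that 1 was added to both means before the ratio. The arithmetic of both was checked on simulated counts with known answers. There 1 was added by construction, so that assumption was not tested. Depth per library and cell is unknown, so no counting error is given. The members, lists and alternatives were chosen with earlier results of these data known. Named genes were the members, listed genes of the pathway and class I lists (at most 10 per cluster), cell type markers and the 5 most alike genes; motifs were chosen after the sequences were read. Some genes of these lists are counted but not reported here. Promoters were found for 5 of the 7 genes in RefSeq (GRCm38.p6). In the hepatocyte table, 7 rows have gene names stored as dates. Python 3.11.15, NumPy 2.4.6, pandas 2.3.3 and Biopython 1.88 were used.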

Additional observations from a re-analysis of the deposited data

How the results depend on the processing

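No paired analysis was possible because each condition has 1 library and the tables pool both. Restricting the rows to an adjusted p-value under 0.05, to log2 values from 0.5 or from 1, or to a higher share inside the cluster left 6 class II genes for B cells and 5 for Kupffer cells. For hepatocyte clusters the count of class II genes was 0 in both tables. Other rows or least absolute deviations moved a cluster size by at most 0.076 percentage points and a class II share by at most 0.00202. B cells exceeded Kupffer cells for 5 of 5 genes by fold change, by difference in share and by ratio of shares. Reading the fold change as a plain ratio of means leaves the ratio between clusters as computed, but it then applies to the means without 1 added. Of the 5 genes most like the class II profile, 2 remained when shares were used. With both libraries pooled, unknown depth and rows listed for higher means alone, a lower level in a cluster cannot be seen.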
